A study of Mus musculus with 8 samples.

Results

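The 10 genes described here encode proteins that build cartilage or switch on its genes: the transcription factors Sox9, Sox5 and Sox6, the aggrecan core protein Acan and its link protein Hapln1, the matrilins Matn1, Matn3 and Matn4, and the matrix proteins Comp and Chad. They were taken by name, and each was measured by 1 probe set annotated to that symbol alone, out of 19938 genes with such a probe set. Expression was measured on 8 single-colour arrays, 1 for each of 4 conditions in each of 2 media, in adherent stromal cells from the femurs and tibiae of C57BL/6 mice aged 6 to 8 weeks, grown on Skelite scaffolds. Growth medium held fetal calf serum without added cytokines, and osteoinductive medium is the medium used to drive such cells towards bone. In the microgravity condition the constructs flew in automated incubation units in the KUBIK incubator. In the centrifuge condition they flew in the same kind of unit on a centrifuge at 1 g, in the ground condition they stayed on Earth in hand-operated units, and in the laboratory condition they were kept in culture plates. The series was designed to compare the effect of microgravity in the 2 media. The centrifuge samples also carry a gravity label of microgravity, and a description of the osteoinductive centrifuge sample names growth medium. The titles were followed here, so each result that uses the centrifuge arrays rests on them.

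Cartilage is laid down by chondrocytes. Sox9 is required for a cell to become one, and Sox5 and Sox6, which have no activation domain of their own, work beside it on genes such as Col2a1 and Acan. Aggrecan carries the charged sugar chains that hold water in cartilage, and Hapln1 fastens it to hyaluronan. Matrilins form filaments between collagen fibrils and proteoglycans, Comp is a thrombospondin that binds collagens, and Chad (chondroadherin) is a leucine-rich protein that binds integrins. Marrow stromal cells can be driven to become chondrocytes, usually by TGF-beta or BMP in dense culture, and osteoinductive medium is not meant to do this. Several of these genes are also used outside cartilage. Sox5 and Sox6 act in neurons, Sox6 in muscle and red blood cells, and Comp is plentiful in tendon.

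The 250 bases before the annotated start are shown for 3 genes, picked because they rose furthest in flight. These bases come from RefSeq (GRCm38.p6), in the direction of the gene, and capitals mark a GC box on either strand (GGGCGG or CCGCCC).
Acan (GRCm38.p6, chr7:79052976-79053225, plus strand): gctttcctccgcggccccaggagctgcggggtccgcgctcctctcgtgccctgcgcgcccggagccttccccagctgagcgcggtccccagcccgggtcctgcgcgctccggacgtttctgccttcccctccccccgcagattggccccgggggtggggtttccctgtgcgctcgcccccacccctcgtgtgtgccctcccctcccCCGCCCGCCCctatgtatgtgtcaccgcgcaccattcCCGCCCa
Hapln1 (GRCm38.p6, chr13:89540386-89540635, plus strand): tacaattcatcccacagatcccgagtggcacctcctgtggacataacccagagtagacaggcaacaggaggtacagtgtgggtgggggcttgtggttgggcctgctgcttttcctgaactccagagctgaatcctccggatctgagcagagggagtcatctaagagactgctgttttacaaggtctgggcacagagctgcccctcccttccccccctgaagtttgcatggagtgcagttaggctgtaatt
Matn1 (GRCm38.p6, chr4:130944135-130944384, plus strand): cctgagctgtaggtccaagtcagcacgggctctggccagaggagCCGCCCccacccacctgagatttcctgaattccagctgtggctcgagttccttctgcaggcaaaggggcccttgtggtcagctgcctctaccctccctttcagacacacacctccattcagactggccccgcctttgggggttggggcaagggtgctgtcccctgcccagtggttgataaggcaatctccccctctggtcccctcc
Windows were at hand for 8 of the 10 genes, 14 windows in all because Sox6 has 6 annotated starts and Matn4 has 2. The GC box was found in 6 of the 14 windows, among them those of Acan and Matn1, and in 32.7% of the 32851 windows of the table. The Sox core motifs ACAAAG and AACAAT, searched on both strands, were found in 5 and 1 of the 14 windows, all of them starts of Sox6, and in 16.5% and 9.42% of the table. None of the 3 windows printed here held either. A TATA box (TATAAA, both strands) was present in 2 of the 14 windows, that of Chad and a start of Sox6, against 12.4% of the table. The motifs were chosen after the expression values had been seen, and a match describes the letters of a window only.

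The arrays are compared on the log2 scale of the deposited intensities. Their medians lay between 7.50 and 7.62. The spread was small but not even between the groups, as the flight arrays were on average slightly brighter. Centring each array on its median moved the median log2 change of all genes in flight from -0.02 to -0.11. A gene is called dim where its mean over the 8 arrays is below 7.14 on the log2 scale, the 40th percentile over the probe sets. By that mark 7 of the 10 genes were above the cutoff and 3 were dim, namely Hapln1, Matn3 and Matn4. Of the 7, Sox6, Acan, Matn1 and Chad were above it on all 4 flight arrays and on 0 ground or laboratory arrays. Their place above the cutoff thus rests on the flight arrays. Dim genes stayed in the tests. Of 14 stromal markers, those of the labelled cell type, 1 was dim on all 8 arrays, namely Lepr (5.45). Col1a1, Col1a2 and Col3a1, the collagens of stromal cells, had mean log2 intensities of 12.65, 13.17 and 11.35, and the receptors Pdgfra and Pdgfrb had 10.71 and 10.70. Nt5e, Thy1 and Eng were nearer the cutoff, at 7.42, 7.61 and 7.63. Cxcl12, S100a4, Cd44, Vcam1 and Vim lay between 8.25 and 12.98. Of the 9 blood cell markers measured, 5 had means above the cutoff, led by the macrophage genes Cd68 (8.15), Csf1r (7.99) and Lyz2 (7.89, with 9.72 on the osteoinductive microgravity array), then Cd3e (7.53) and Cd14 (7.16). The other 4, among them Ptprc of white cells (7.11), were dim. Whether different cultures or different mice lie behind the arrays is not stated in the labels. Each medium and condition has 1 array, so the spread behind the p-values is between arrays that differ in condition or medium. Part of that spread could be technical, and precision is limited by how few arrays there are.

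Cells that had flown, in microgravity or on the centrifuge, had higher levels of most of these genes than cells that had not. Of the 10 genes, 8 rose and none fell in the 4 flight arrays against the 4 ground-based arrays (ground and laboratory), by limma with Benjamini-Hochberg adjustment over all 19938 genes. The rises were largest for Hapln1, Matn1 and Acan, at 2.24-fold, 1.92-fold and 1.78-fold, and Sox9 and Comp did not pass. Across all genes 27.8% were called in this comparison, 11.6% higher and 16.2% lower. With each array centred on its median, 7 of the 10 genes were called, 6 of them higher and 1, Sox9, lower. Of all genes 35.7% were then called and 8.69% were higher. The median log2 change of the 10 genes was 0.38, and that of all genes was -0.02. The latter depended on brightness, at -0.09 for the 13205 genes above the 40th percentile and -0.165 for the 8891 above the 60th. Of the 10 genes only Sox9 was above the 60th, and its change was negative. With all 4 flight arrays above all 4 ground-based arrays there were again 8 of the 10 genes, and 11.8% of all genes (23.4% did not overlap in either direction). Without the growth medium microgravity array 5 of the 10 genes were called in place of 8, and after quantile normalization also 5. The share of all genes called was then 20.1% (9.29% higher) and 23.2% (10.5% higher). In each case these were Sox5, Sox6, Acan, Hapln1 and Matn1.

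**Figure D1:**
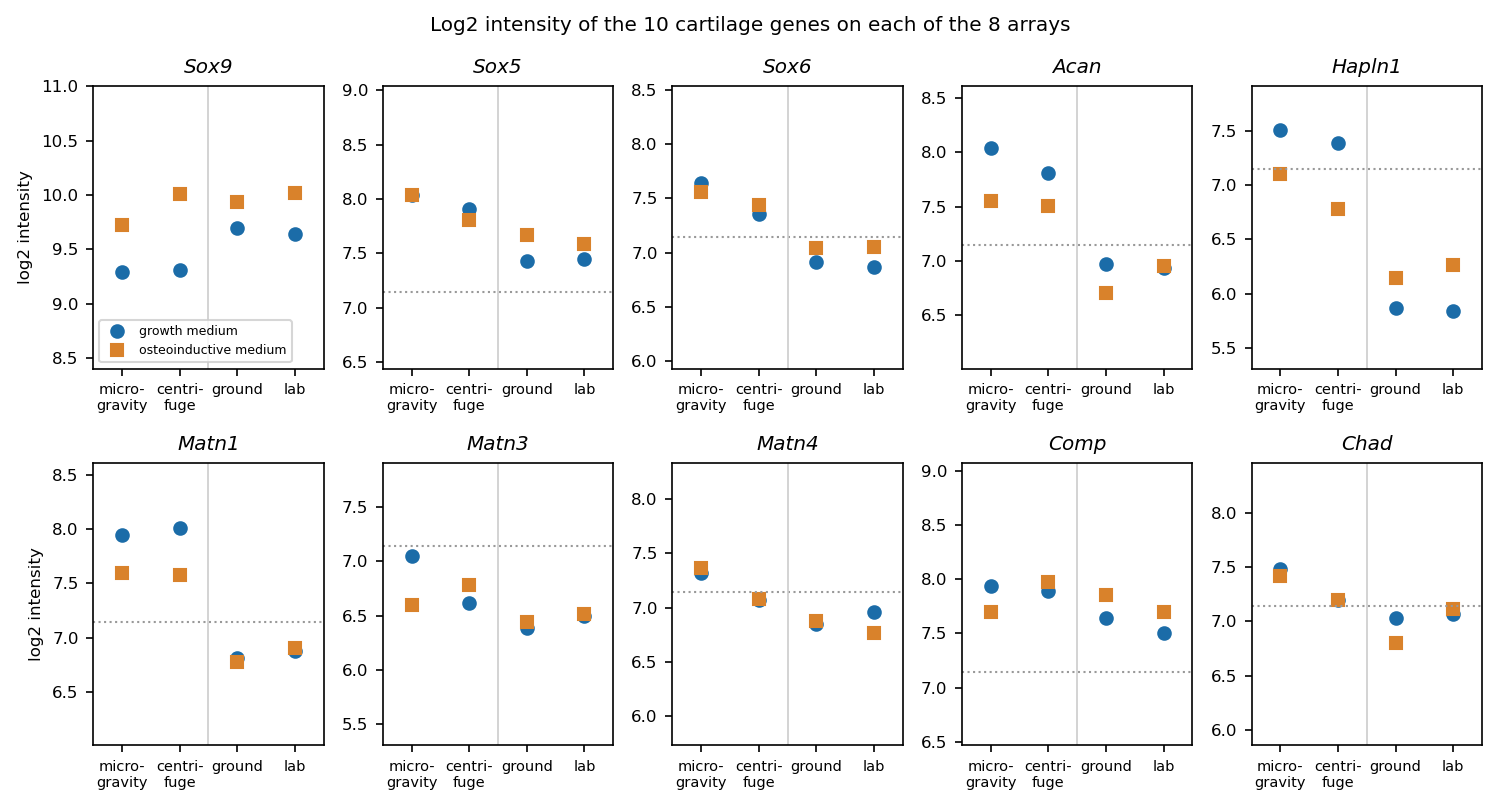
Log2 intensity of each of the 10 genes by condition, 1 point per array, circles for growth medium and squares for osteoinductive medium; the dotted line is the dim cutoff of 7.14 and each panel spans 2.6 log2 units. Acan, Hapln1, Matn1 and Sox6 have all flight points (left of the line) above all ground-based points, whereas for Sox9 and Comp the points overlap.

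Among the transcription factors, Sox5 and Sox6 rose in flight and Sox9 did not. Sox9 had log2 intensities of 9.29 and 9.30 on the growth medium arrays from microgravity and centrifuge, 9.72 and 10.00 on the osteoinductive ones, 9.70 and 9.64 on the growth medium arrays from ground and laboratory, and 9.94 and 10.02 on the osteoinductive ones. The flight and ground-based arrays overlapped, and the lowest 2 values were the growth medium flight arrays. The log2 change in flight was -0.24 (SE 0.09, limma adjusted p = 0.0652). Sox9 passed as lower with each array centred on its median (-0.33, adjusted p = 0.0173) and without the osteoinductive centrifuge array (-0.33, adjusted p = 0.0177). It also passed narrowly under either filter on dim genes (adjusted p = 0.0489 and 0.0486) and with 32 added before log2 (adjusted p = 0.0497).

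Sox5, a partner of Sox9 that lacks an activation domain, had 8.04 and 7.90 on the growth medium flight arrays (microgravity, then centrifuge) and 8.04 and 7.81 on the osteoinductive ones. Its ground-based values were 7.43 and 7.45 in growth medium (ground, then laboratory) and 7.67 and 7.58 in osteoinductive medium. All flight values were higher, with a gap of 0.13 to the nearest ground-based array. The fitted change was 0.41 on the log2 scale (SE 0.09, limma adjusted p = 0.00488). Sox6, the closest relative of Sox5, had 7.64, 7.35, 7.56 and 7.44 on the flight arrays in the same order. On the ground-based arrays it had 6.91, 6.86, 7.04 and 7.06, all under the dim cutoff. The gap between the groups was 0.30, and the fitted change was 0.53 (SE 0.09, limma adjusted p = 9.22e-04).

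The genes of the aggrecan complex rose together. Acan had log2 intensities of 8.04 and 7.81 on the growth medium flight arrays (microgravity, then centrifuge), 7.55 and 7.51 on the osteoinductive flight arrays, 6.97 and 6.94 in growth medium on the ground and in the laboratory, and 6.71 and 6.95 in osteoinductive medium. The groups were 0.54 apart, and within flight the growth medium arrays were the higher pair. Acan was higher in flight by 0.83 (SE 0.095, limma adjusted p = 4.68e-05). Hapln1, the link protein that joins aggrecan to hyaluronan, had 7.51, 7.39, 7.10 and 6.78 on the flight arrays and 5.87, 5.84, 6.14 and 6.27 on the ground-based arrays, in the same order. It lay under the dim cutoff on every ground-based array and on both osteoinductive flight arrays. It had the highest log2 change of the 10 genes, 1.17 (SE 0.15, limma adjusted p = 1.36e-04).

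The matrilins differed in size of change. Matn1, a matrilin of cartilage, had 7.95 and 8.01 on the growth medium flight arrays, 7.60 and 7.57 on the osteoinductive ones, and 6.82, 6.88, 6.78 and 6.90 on the ground-based arrays. The 4 ground-based values had an SD of 0.06 and lay under the dim cutoff, and the gap to the flight arrays was 0.67. The change was 0.94 (SE 0.09, limma adjusted p = 1.35e-05). Matn3, in which mutations cause a form of epiphyseal dysplasia in people, had 7.04, 6.61, 6.59 and 6.78 in flight and 6.39, 6.49, 6.44 and 6.52 otherwise, and stayed under the dim cutoff on all 8 arrays. Its change of 0.30 (SE 0.10) passed narrowly (limma adjusted p = 0.0479). That call was lost after quantile normalization (adjusted p = 0.122), after median centring (0.123), with 32 added before log2 (0.0622), with no term for medium (0.0729) and without any one array other than growth centrifuge and osteoinductive microgravity (adjusted p = 0.0717 to 0.131). Matn4, a matrilin found in many tissues besides cartilage, had 7.32, 7.07, 7.36 and 7.08 in flight against 6.85, 6.96, 6.88 and 6.77. Both microgravity arrays were above both centrifuge arrays. Its change of 0.34 (SE 0.09, limma adjusted p = 0.0174) did not pass after quantile normalization (adjusted p = 0.0621). It also missed without the growth microgravity (0.0508), osteoinductive microgravity (0.0624) or osteoinductive laboratory array (0.0642).

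Of the other matrix proteins, Chad rose and Comp did not pass. Chad had 7.49 and 7.41 on the microgravity arrays of growth and osteoinductive medium, 7.19 on each of the centrifuge arrays, and 7.03, 7.06, 6.80 and 7.12 on the ground-based arrays. The gap between groups was 0.07, and the change of 0.32 (SE 0.10, limma adjusted p = 0.0328) was lost after quantile normalization (adjusted p = 0.123), after median centring (0.0824) and with no term for medium (0.0533). It was also lost without either microgravity array (0.0958 in growth and 0.1 in osteoinductive medium), either ground array (0.0727 and 0.117) or the growth laboratory array (0.0696). Comp, also a tendon protein, had 7.94, 7.89, 7.70 and 7.97 in flight and 7.64, 7.51, 7.85 and 7.70 otherwise. The groups overlapped, and the change was 0.20 with a 95% confidence interval from -0.01 to 0.41 (limma adjusted p = 0.147).

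**Figure D2:**
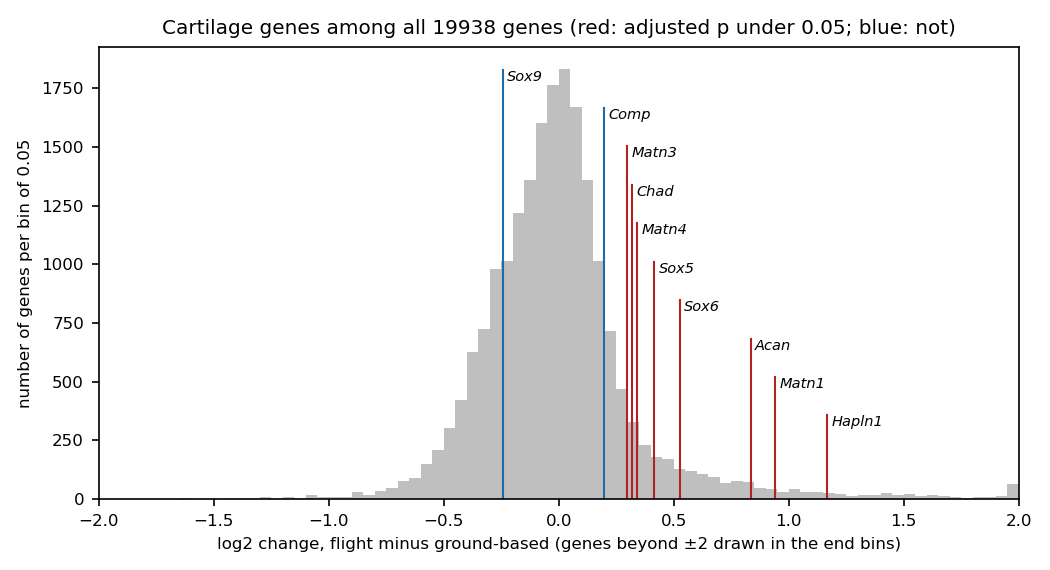
Histogram of the log2 change between flight and ground-based arrays over all 19938 genes, with a line for each of the 10 genes, red where the adjusted p was under 0.05 and blue otherwise; line height has no meaning. Hapln1, Matn1 and Acan lie in the right tail, at percentiles 98.4, 97.7 and 97.2 of all genes, and Sox9 is the only line left of 0, at percentile 19.7.

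Microgravity and the centrifuge were each set against the ground hardware, to separate flight as a whole from weightlessness. The 2 comparisons share the ground arrays, so their values are given side by side. In microgravity 7 of the 10 genes rose, when 20.2% of all genes were called (9.6% higher and 10.6% lower). On the centrifuge 3 rose, namely Acan, Hapln1 and Matn1, when 7.61% of all genes were called (5.34% higher and 2.27% lower). Hapln1 was higher by 1.30 (SE 0.21, limma adjusted p = 0.00148) in microgravity and by 1.08 (SE 0.21, limma adjusted p = 0.00781) on the centrifuge. Acan was higher by 0.95 and 0.82, with limma adjusted p = 5.27e-04 and 0.00238. The centrifuge call of Hapln1 was lost without the growth centrifuge or the growth ground array. Matn1 was higher by 0.98 and 0.995, with limma adjusted p = 5.23e-04 and 6.9e-04. The other 4 genes called in microgravity were Sox6 (0.62, limma adjusted p = 0.00428), Chad (0.54, adjusted p = 0.0095), Sox5 (0.49, adjusted p = 0.0173) and Matn4 (0.47, adjusted p = 0.016). On the centrifuge their log2 changes were 0.41, 0.28, 0.31 and 0.21, and the lowest limma adjusted p of the 4 was that of Sox6, 0.0599. Sox9 differed by -0.31 and -0.16 and Comp by 0.07 and 0.18, none of which passed. The count of 7 became 3 without the growth medium microgravity array and 4 without either ground array. The share of all genes called was 7.94% in the first case, and 9.75% or 8.01% with the ground array of growth or of osteoinductive medium left out.

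Setting microgravity directly against the centrifuge tested the difference between them. No gene passed in limma, 0% of 19938, although 2120 had an unadjusted p under 0.05, and of the 10 genes 1, Matn4, had one. Matn4 was higher in microgravity by 0.27 (95% confidence interval 0.005 to 0.53, limma adjusted p = 0.463), by 0.25 in growth medium and 0.28 in osteoinductive medium. Chad was higher by 0.26 (-0.01 to 0.52, adjusted p = 0.486), by 0.29 and 0.22 in the 2 media. Matn1 differed by -0.02 (-0.32 to 0.29), Acan by 0.14 (-0.16 to 0.43) and Hapln1 by 0.22 (-0.25 to 0.68). Matn3 and Comp had differences of opposite sign in the media, 0.43 in growth and -0.19 in osteoinductive medium for Matn3, and 0.05 and -0.28 for Comp, with 1 array on each side.

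The ground hardware and the culture plates were compared to see what the hand-operated unit does at normal gravity. The units that flew were automated and have no array from Earth. Flight and the kind of unit therefore cannot be told apart where flight arrays are set against ground. No gene passed in limma, 0% of all genes, with 480 at an unadjusted p under 0.05 and none of them among the 10. The largest difference within a medium was that of Chad in osteoinductive medium, where ground minus laboratory was -0.32, and in growth medium it was -0.04. For the other genes the differences within a medium ran from -0.25 (Acan, osteoinductive) to 0.15 (Comp, osteoinductive).

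**Figure D3:**
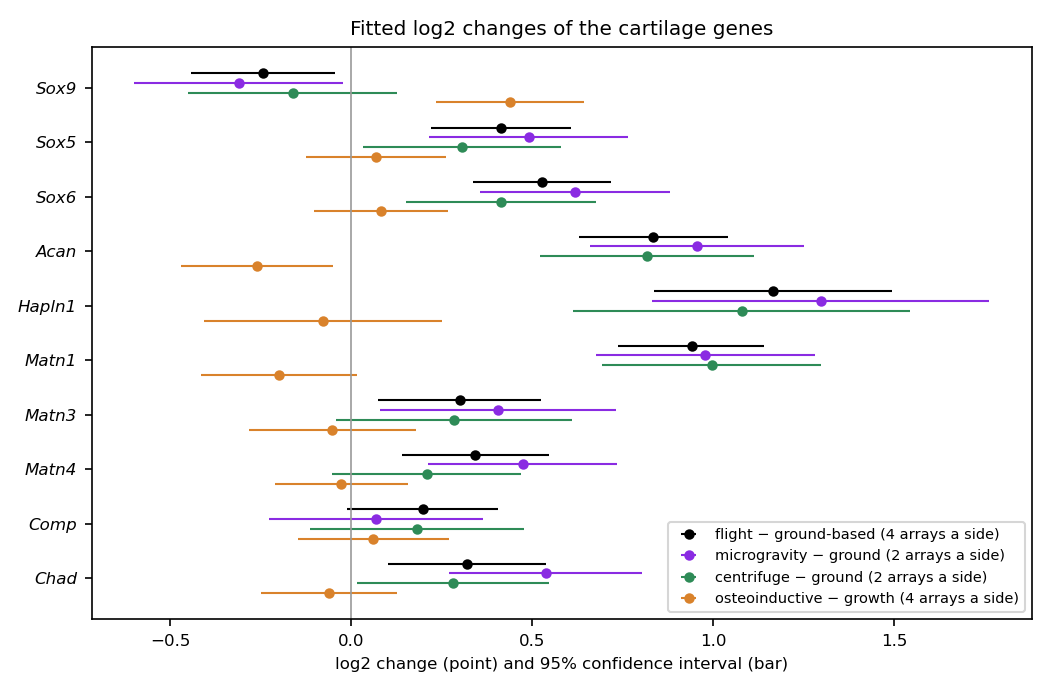
Fitted log2 change (point) and 95% confidence interval (bar) of each gene in 4 comparisons, with 4 or 2 arrays on each side. For Acan, Hapln1 and Matn1 the microgravity and centrifuge changes against ground lie close to each other, between 0.82 and 1.30, and Sox9 is the only gene whose interval for the medium lies above 0.

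The medium changed Sox9 and no other of the 10 genes by the test. Sox9 was higher in osteoinductive medium by 0.44 on the log2 scale (SE 0.09, limma adjusted p = 0.0131), when 8.45% of all genes were called (4.18% higher and 4.27% lower). It was higher in all 4 conditions, by 0.70 on the centrifuge, 0.44 in microgravity, 0.38 in the laboratory and 0.24 on the ground, and all 4 osteoinductive arrays were above all 4 growth medium arrays. Of the 10 genes this was the case for Sox9 alone, and 7.82% of all genes did not overlap between media. Without either centrifuge array the change was 0.35 (adjusted p = 0.0656). Acan was lower by 0.26 (95% confidence interval -0.47 to -0.05, limma adjusted p = 0.13), with differences of -0.49 in microgravity, -0.30 on the centrifuge, -0.27 on the ground and 0.02 in the laboratory. Matn1 was lower by 0.20 (-0.41 to 0.02, adjusted p = 0.27). Hapln1 had medium differences of opposite sign, -0.41 and -0.60 in microgravity and on the centrifuge but 0.28 and 0.43 on the ground and in the laboratory. For the other 6 genes the intervals lay between -0.28 and 0.27.

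The difference in flight effect between media was tested as an interaction. No gene passed in limma, 0% of 19938, with 842 at an unadjusted p under 0.05. Hapln1 was higher in flight by 1.59 in growth medium and by 0.74 in osteoinductive medium, a difference of -0.86 (95% confidence interval -1.27 to -0.45, unadjusted p = 6.35e-04 by limma, adjusted p = 0.62). Matn1 followed with 1.13 and 0.75, a difference of -0.38 (-0.73 to -0.03, limma unadjusted p = 0.0345, adjusted p = 1). Acan had 0.97 and 0.70, Sox6 0.60 and 0.45, and Sox5 0.54 and 0.29, with intervals of the difference that included 0. In Matn4 and Chad the osteoinductive value was the larger, 0.40 against 0.29 and 0.35 against 0.29. Sox9 differed by -0.37 in growth and by -0.11 in osteoinductive medium.

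Other cartilage genes were followed in a list of 24 matrix genes, all measured. In flight 13 rose, 1 fell and 10 did not pass, with a median log2 change of 0.27. Otor, a small secreted protein of the inner ear and cartilage, rose by 1.15, and Col2a1, the main collagen of cartilage, by 1.12. By its mean of 6.47 Otor was dim, and its ground-based arrays, at 5.82 to 5.96, were all under the cutoff. Cnmd (chondromodulin), which keeps blood vessels out of cartilage, rose by 0.61, and Col10a1, the collagen of hypertrophic chondrocytes, by 0.52. The gene that fell was Col11a1, a collagen of the fibril core, by 0.28; it was named after its value was seen. In osteoinductive medium 4 of the 24 rose and none fell: Chst11, a chondroitin sulfotransferase, by 1.14, Prg4 (lubricin), which was dim on all arrays, by 0.62, Itga10 by 0.43 and Xylt1, which starts the sugar chains of proteoglycans, by 0.40. Of the list 7 genes were dim on all 8 arrays. Among the genes that rose in flight, Epyc, Ucma, Cytl1, Scrg1 and Vit were, like Otor, dim by their means. Epyc and Scrg1 were dim on all arrays. These too were named after their values were seen.

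Relatives of the 10 genes did not move as a group in flight. Of 20 paralogs 5 rose, 3 fell and 12 did not pass, with a median log2 change of 0.00. Those that rose furthest were Ncan and Bcan, the aggrecan relatives neurocan and brevican of the brain, by 1.70 and 1.10. Lum and Fmod, leucine-rich proteoglycans like Chad, rose by 0.86 and 0.60. The 3 that fell, named after their values were seen, were Hapln4 by 0.57, Matn2 by 0.32 and Thbs3 by 0.27. Matn2 is the matrilin of connective tissue, and Hapln4 is a link protein of the brain. Sox8 and Sox10, the closest relatives of Sox9, differed by 0.14 and 0.12 and did not pass. In osteoinductive medium 4 of the 20 rose, among them Vcan (versican), the aggrecan relative of soft connective tissue, by 1.65, Thbs2 by 1.31, Prelp by 0.68 and Dcn by 0.57.

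Among 26 measured regulators and signals of cartilage formation, 9 rose and 5 fell in flight, with a median of 0.10. Fgfr3, a receptor that restrains chondrocyte growth, rose by 0.52. Tgfb3, a growth factor used to induce chondrocytes, fell by 0.56, Runx3 by 0.39 and Prrx1, a factor of limb mesenchyme, by 0.38. In osteoinductive medium 2 of the 26 rose and 2 fell: Wnt5a rose by 0.59 and Tgfb2 by 0.37, and Bmp2 fell by 0.61 and Prrx1 by 0.48. Of 8 measured osteoblast genes, 4 rose in flight and none fell. Ibsp (bone sialoprotein) rose by 1.73, Dlx5 by 0.87, Alpl by 0.35 and Sp7 by 0.33, and none of the 8 passed between media.

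Comp is also a tendon protein, and of 10 tendon and ligament genes 4 rose and 1 fell in flight, with a median of 0.03. Tnmd (tenomodulin) rose by 0.68, Fmod by 0.60 and Kera by 0.39, and Tnc (tenascin C) fell by 0.94. Scx, the transcription factor of tendon cells, differed by 0.09 and did not pass.

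Markers of other tissues moved with the same split of the arrays. Of 14 neuronal markers 14 rose in flight, with a median log2 change of 1.53, led by Stmn2 (4.30), Gria2 (3.33), Dcx (2.97) and Syt1 (2.63). Their summed intensity lay between 9416 and 14170 on the flight arrays and between 3279 and 4337 on the others, and none was dim on all arrays. Of 14 skeletal muscle markers 12 rose, with a median of 1.23, and the sums were 7866 to 10403 against 3108 to 3287. Actc1, Acta1 and Myh8, proteins of the contractile filaments, rose by 2.46, 2.32 and 2.27, and Myog and Myod1, the factors that define muscle cells, differed by 0.15 and 0.17 and did not pass. Of 10 endothelial markers 9 rose, with a median of 0.65 and sums of 2062 to 3439 against 1533 to 1620. Of 12 lung epithelium markers 4 rose, with a median of 0.54, and the highest sum, 14528, was that of the osteoinductive microgravity array, against 2339 to 3487 on the other flight arrays and 1375 to 1526 on the ground-based arrays. Of 8 glial markers 4 rose and none fell, with a median of 0.22. Of 14 stromal markers 7 fell and 2 rose, with a median of -0.21 and sums of 27331 to 32055 in flight against 33549 to 37249, and of 9 blood cell markers 1 fell and none rose. The part of these tissues in the rise of the cartilage genes was not tested. The lung, endothelial and blood cell sums were highest on the osteoinductive microgravity array. With it left out, 6 of the 10 genes were called in flight in place of 8, and Chad and Matn4 were not. The share of all genes called then also fell, from 27.8% to 21% (9.8% higher). Chad and Matn4 were likewise not called without the growth medium microgravity array, whose lung sum was 3487. That left 5 of the 10 genes called, and 20.1% of all genes (9.29% higher). In such bulk samples fewer cells of a type and less RNA per cell cannot be told apart.

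**Figure D4:**
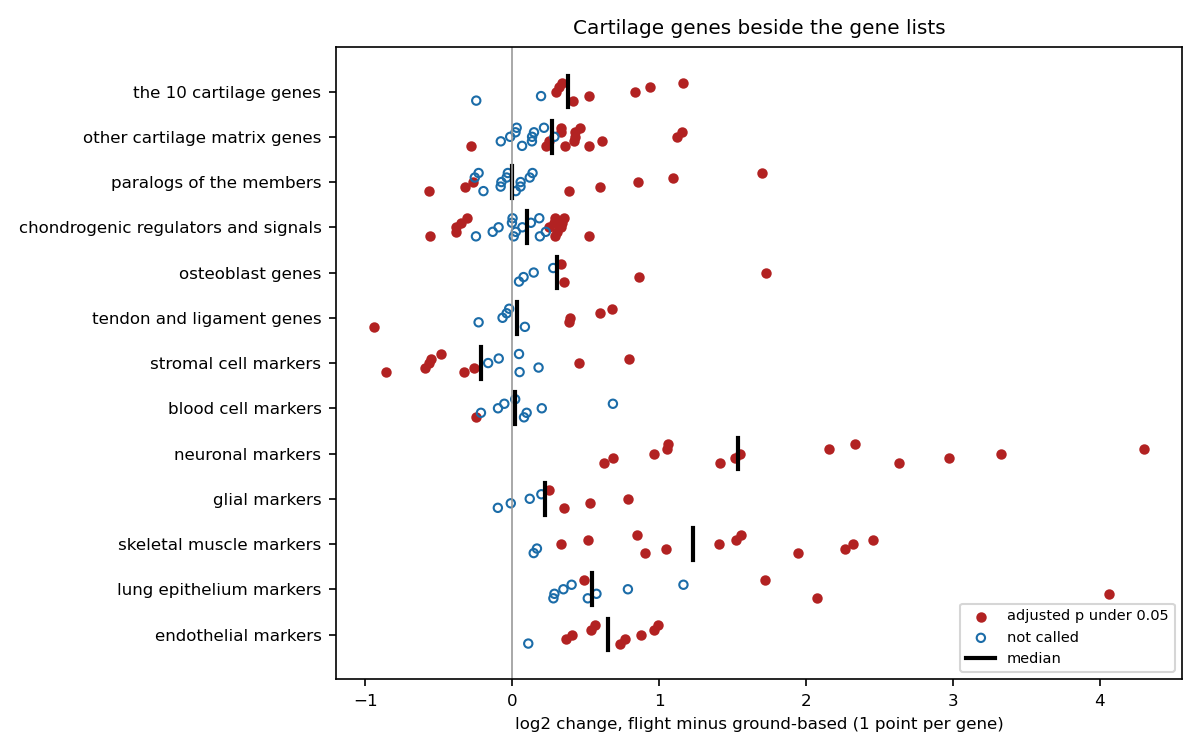
Log2 change between flight and ground-based arrays of the 10 genes and of each gene in the 12 lists, 1 point per gene, filled where the adjusted p was under 0.05; the black bar is the median. The median of the 10 genes, 0.38, lies above that of the other cartilage matrix genes, 0.27, and below those of the neuronal (1.53), muscle (1.23), lung (0.54) and endothelial (0.65) markers.

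The genes whose levels followed each of the 7 brighter genes most closely over the 8 arrays were sought by Pearson correlation, among up to 1609 genes above the dim cutoff whose highest and lowest arrays differed by at least 1 on the log2 scale. The 8 points share the divide between flight and ground-based arrays, so the values are a description. Acan was closest to Cspg5 (0.997), Camkv (0.992) and Islr2 (0.992), and Matn1 to Mapk10, Syp and Grm3 (0.995, 0.995 and 0.994). Syp encodes synaptophysin, a protein of synaptic vesicles, and Grm3 a glutamate receptor. Sox6 was closest to Susd4, Pcsk1n and Pde9a (0.989, 0.988 and 0.988), and Sox5 to Fndc1, Frmd4b and Ncald (0.987, 0.982 and 0.981). Sox9, which followed the medium, was closest to Amotl1, Itga5 and Foxc1 (0.977, 0.975 and 0.970). Chad had its highest values with St6galnac5, Gpr162 and Igfbp3 (0.935, 0.928 and 0.916), and Comp with Cntfr, Gdf10 and Bdh1 (0.866, 0.832 and 0.827).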

How the data were processed

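Total RNA (100 ng) from each of the 8 samples was amplified, biotin-labelled and hybridised, per the labels' protocols. The authors deposited 1 linear intensity for each probe set and array. RMA and GCRMA are named, per the submitters' processing notes, without saying which made the values; the build is not stated in those sources. Log2 was taken with no further normalization. The array annotation gave 1 gene for 21789 of the 35557 probe sets, several for 1621 and none for 12147. The brightest probe set stood for a gene.

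limma 3.58.1 (R 4.3.3, lmFit and eBayes) was fitted to all 19938 genes without a filter, so that dim genes kept a test, with Benjamini-Hochberg adjustment within each of 7 comparisons and a two-sided threshold of 0.05. Flight was fitted with medium as covariate (5 residual degrees of freedom), condition with medium (3), and the interaction with flight and medium (4). As each medium and condition has 1 array, different conditions or media serve as repeats. The fits were checked on simulated data. These had independent random spread and far fewer changed genes than were called here in flight. They held no brightness difference between arrays and no other difference between conditions. The check therefore does not cover those features of these arrays. The 10 genes and the 12 lists were chosen with earlier results of these data known. Named from a list are the genes past the threshold with the largest change, at most 4 per list and comparison. Named outside this rule, after their values were seen, are Sox8, Sox10, Scx, Myog, Myod1, Ptprc, Csf1r, Lyz2, Cd3e, Cd14, Pdgfra, Pdgfrb, Col1a1, Col1a2, Col3a1 and the genes the text marks so. The same holds for Lepr, Nt5e, Thy1, Cxcl12, Cd44 and Vim. Some listed genes were not analysed here. Alternatives were quantile normalization, median centring, filters at the 40th and 60th percentile, 32 added before log2, the mean of a gene's probe sets, an intensity trend, no medium term, the arrays of the compared conditions alone, and leaving out each array.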

Additional observations from a re-analysis of the deposited data

Results flagged for a closer look

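Acan on the osteoinductive ground array, at a log2 intensity of 6.71, lay farther below the other 3 ground-based arrays than their spread would give: its gap to the nearest was 0.855 of the whole range; this passes Dixon's critical value at the 95% level. The 20 sets of 4 arrays looked at were the flight and ground-based sides of the 10 genes, and chance alone marks about 1 in 20. Without that array Acan was higher in flight by 0.81.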

How the results depend on the processing

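Of the 10 genes, 8 were called in flight minus ground-based. The count was 5 after quantile normalization and ran from 5 to 8 when arrays were left out in turn. Without the osteoinductive centrifuge array the 8 genes called were 7 higher and 1 lower, Sox9. The share of all genes called moved as well, to 37% without the growth centrifuge array and 18.6% without the growth laboratory array. Under the filter at the 60th percentile only Sox9 was tested, and that 1 gene was called, as lower; the same filter gave 0 in microgravity minus ground and 0 in centrifuge minus ground. Leaving out arrays gave 3 to 7 in microgravity minus ground and 0 to 1 in osteoinductive minus growth. Sox5, Sox6, Acan, Hapln1 and Matn1 were called higher in flight under each alternative that tested them, and no gene changed direction among calls. For Sox6, Acan and Matn1 the less strict filter was no separate check, because their means passed it only through the flight arrays. Hapln1, being dim, was not tested under that filter. Over all genes, 5533 were called in flight, 7113 after median centring and 3602 with no term for medium; the stricter filter tested 8891 genes and called 3684 of them, 41.4% against 27.8%. In microgravity minus ground, 4030 genes were called, and 1583, 1944 and 1598 with the growth microgravity, growth ground or osteoinductive ground array left out, and in osteoinductive minus growth 1684 became 728 without either centrifuge array. In centrifuge minus ground 1518 genes were called (7.61%), 641 of the 8891 under the stricter filter (7.21%), and 854, 873 and 806 with the osteoinductive centrifuge, growth ground or osteoinductive ground array left out. From 0, microgravity minus centrifuge reached 108 with its 4 arrays alone, 95 and 5 without the growth or osteoinductive microgravity array, the interaction 27 without the osteoinductive centrifuge array, and ground minus laboratory 1 without the growth laboratory array. Why these counts moved was not tested. Depth has no counterpart on these arrays, and 3 of the 10 genes were dim.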
